A study of Mus musculus with 12 samples.

Results

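The insulin-like growth factor (IGF) axis was followed in Sonic hedgehog medulloblastoma (MB) of the mouse through 10 genes: the ligands *Igf1* and *Igf2*, the receptors *Igf1r* and *Igf2r*, the adaptor *Irs1* and the binding proteins *Igfbp2*, *Igfbp3*, *Igfbp4*, *Igfbp5* and *Igfbp7*. They are 10 of 19057 genes on the array and hold 24 of its 45281 probes. A gene was chosen by its symbol and read from its probe with the highest mean over all 12 arrays, and the remaining probes served as a check. No measured value entered the choice of the genes from the array table, although earlier results of these data were known when the list was drawn up.

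RNA was hybridized to Illumina MouseWG-6 v2.0 BeadChips, 1 array a sample, from tumors of 2 genotypes, *Ptch+/-* and *NdpKO;Ptch+/-* (n = 4 each), and from granule neuron progenitors (GNPs) of wild-type mice (n = 4). *Ptch+/-* mice carry 1 inactive copy of the Hedgehog receptor gene *Ptch*, which predisposes them to MB, and both tumor groups carry it. In *NdpKO;Ptch+/-* mice the X-linked gene *Ndp*, which encodes the secreted ligand Norrin, was disrupted in addition by a *lacZ* cassette in the germ line, so that every cell of the animal lacks it. GNPs, the cerebellar progenitors from which this tumor arises, came from postnatal day 6 (P6) wild-type mice with neither mutation and were purified on a percoll gradient with pre-plating, whereas MBs came from symptomatic animals of unstated age. Age, purification, transformation and the *Ptch* genotype therefore cannot be told apart when a tumor is compared with GNPs. The labels give a mixed strain background for *NdpKO;Ptch+/-* MBs and C57Bl/6 for *Ptch+/-* MBs and GNPs. The study's methods, however, describe animals of the same breeding cohort, in which *NdpKO;Ptch+/-* animals were all male while other controls included both sexes. The study also reports a shorter mean tumor latency in *NdpKO;Ptch+/-* mice. Strain, sex, age at tumor and the loss of *Ndp* therefore cannot be told apart in the comparison of the tumors. Strain, sex and the loss of *Ndp* are likewise confounded when *NdpKO;Ptch+/-* MBs are compared with GNPs. The 2 comparisons with GNPs are thus not equally matched. Nothing in the labels says that each sample was a separate mouse, and the p-values then measure the spread between these samples.

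Values are log2 signals, on which 1 unit is a 2-fold difference, and a signal under 4.5 was taken as background. Between 31.8% and 32.5% of the probes reached this limit on each array. Pearson's r between arrays of a group, across probes, was 0.984 to 0.996. The *Ndp* probe lay at 4.12 to 4.21 on all 12 arrays and could not check the *Ndp* genotype. *Zic1* (13.74 to 14.12) and *Barhl1* (11.07 to 11.61), markers of the granule lineage, were high by the group means of all 3 groups and are named after their values were seen, while the probes for *Atoh1* and *Gabra6* stayed under the limit on all arrays. Other markers of that lineage were lower in *Ptch+/-* MBs than in GNPs, namely *Neurod2* (-3.70), *Neurod1* (-1.22) and *Pax6* (-1.68, with 3 of 4 tumors under the limit). In *NdpKO;Ptch+/-* MBs these 3 differences were -2.99, -0.87 and -1.01, with limma adjusted p = 0.0449, 0.0694 and 0.0862. *Zic2* differed by -0.86 in *Ptch+/-* MBs (adjusted p = 0.112) and by -1.40 in *NdpKO;Ptch+/-* MBs (adjusted p = 0.0213). Because MBs and GNPs were measured in bulk, fewer cells of a type and less RNA per cell cannot be told apart in any value that follows.

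IGF1 and IGF2 are secreted growth factors that activate the receptor tyrosine kinase IGF1R, which passes the signal through insulin receptor substrates such as IRS1 to phosphatidylinositol 3-kinase and AKT. IGF2R has no kinase and removes IGF2 from the cell surface, and the IGF-binding proteins hold the ligands in the extracellular space and can restrain or prolong their action. *Igf2* is an imprinted gene expressed from the paternal allele, and it is known to be required for MB formation in *Ptch+/-* mice.

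Sequences just upstream of the transcription start are shown for the binding protein genes that marked the 3 patterns found: *Igfbp3*, higher in both tumor groups than in GNPs, *Igfbp4*, different between the tumor genotypes, and *Igfbp5*, lower in both tumor groups. Each is the 80 bases before the start in RefSeq on GRCm38.p6, written 5′ to 3′ on the strand of the gene, at chr11:7213924-7214003 (minus strand), chr11:99041164-99041243 (plus strand) and chr1:72874866-72874945 (minus strand), respectively. Capitals mark every match to TATANA on either strand, the core of a TATA box.
Igfbp3: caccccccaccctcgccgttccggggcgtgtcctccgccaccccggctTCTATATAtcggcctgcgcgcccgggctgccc
Igfbp4: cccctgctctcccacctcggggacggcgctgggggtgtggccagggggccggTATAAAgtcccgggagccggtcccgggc
Igfbp5: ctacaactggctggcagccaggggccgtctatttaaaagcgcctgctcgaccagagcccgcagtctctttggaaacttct
The capitals stand 32 to 25 bases before the start in *Igfbp3*, where matches on both strands overlap, and 28 to 23 bases before it in *Igfbp4*. The *Igfbp5* window held no match. The counts that follow cover longer windows than those printed, which begin 250 bases before the start. TATANA occurred in 24.7% of all 32851 such windows and in 2 of the 14 windows of IGF axis genes. The motif GACCACCCA, a binding sequence of the GLI factors of the Hedgehog pathway, searched on both strands as well, occurred in 0.253% of all windows and in 0 of these 14. Both motifs were chosen after the sequences had been seen, and a match describes the letters of the window and nothing more.

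**Figure D1:**
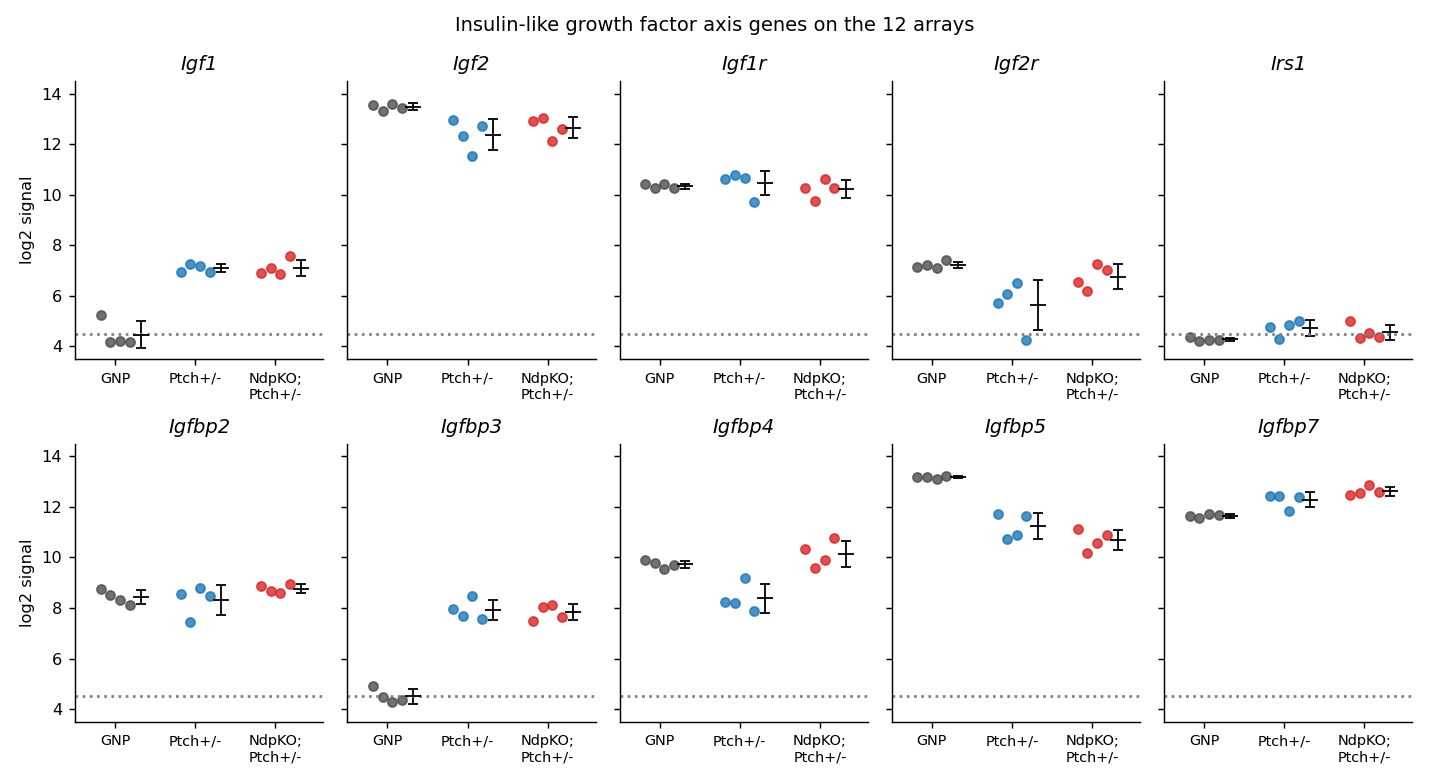
Log2 signal of each IGF axis gene (brightest probe) on the 12 arrays, with 1 panel per gene and 1 point per array; the bar beside each group is its mean with 1 SD (n = 4), and the dotted line is the background limit of 4.5. *Igf1* and *Igfbp3* rise from the limit in wild-type GNPs to about 7 and 8 in both tumor groups, *Igf2* and *Igfbp5* lie lower in all tumors than in all GNPs, and *Igfbp4* lies lower in *Ptch+/-* MBs than in the other groups.

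Whether the axis differs between tumors and GNPs, and between tumors with and without *Ndp*, was asked of each gene with limma at an adjusted p under 0.05. Of the ligands, *Igf1* was higher than in GNPs in both types of tumor, and *Igf2* was lower in *Ptch+/-* MBs. *Igf1* encodes the ligand that growth hormone induces in the liver and that many tissues, and microglia in the brain, also make. Its log2 signals were 5.26, 4.19, 4.23 and 4.19 in GNPs, 6.96, 7.26, 7.20 and 6.95 in *Ptch+/-* MBs and 6.92, 7.10, 6.86 and 7.56 in *NdpKO;Ptch+/-* MBs. All 8 tumors lay above all 4 GNP samples, of which 3 were under the background limit. *Igf1* was higher by 2.62 log2 units in *Ptch+/-* MBs (SE 0.25, 95% CI 2.06 to 3.19, adjusted p = 0.000105) and by 2.64 in *NdpKO;Ptch+/-* MBs (CI 2.08 to 3.21, adjusted p = 0.00014), fitted values that correspond to 6.16-fold and 6.24-fold. The tumor genotypes differed by 0.02, with an interval from -0.55 to 0.58 (adjusted p = 0.994), and their arrays overlapped. The second *Igf1* probe gave smaller differences, 1.81 (adjusted p = 0.0198) and 1.85 (adjusted p = 0.0232), and GNP replicate 1 reached 6.49 on it.

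Microglial and macrophage markers moved with *Igf1*. Of 11 such genes on the array, 7 were higher in *Ptch+/-* MBs and 7 in *NdpKO;Ptch+/-* MBs than in GNPs, and none was lower. Of all probes, 17.3% and 12.4% passed in these comparisons in either direction, and 37% and 27.1% of those above the limit on some array. The summed log2 signal of the 11 markers was 56.9 to 61.4 in GNPs, 80.3 to 90.6 in *Ptch+/-* MBs and 79.2 to 84.7 in *NdpKO;Ptch+/-* MBs, with no overlap between tumors and GNPs. *Aif1*, a calcium-binding protein of microglia, rose from a mean of 4.66 in GNPs to 9.31 (adjusted p = 5.48e-06) and 8.97 (adjusted p = 1.07e-05), and *Tyrobp*, an adaptor of myeloid receptors, was higher by 3.68 (adjusted p = 2.64e-05) and 3.40 (adjusted p = 6.3e-05). *Tmem119* and *Itgam* stayed under the limit on every array. None of the 11 passed between the tumor genotypes. The part of these cells in the *Igf1* difference was not tested.

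*Igf2*, the fetal ligand of the axis, had 1 probe, with log2 signals of 13.57, 13.31, 13.60 and 13.44 in GNPs, 12.94, 12.32, 11.55 and 12.71 in *Ptch+/-* MBs and 12.93, 13.02, 12.11 and 12.59 in *NdpKO;Ptch+/-* MBs. Each tumor lay below each GNP sample, and the tumor groups overlapped widely. In *Ptch+/-* MBs the difference was -1.10 (SE 0.30, CI -1.76 to -0.44, adjusted p = 0.0305), that is, 2.14-fold lower. In *NdpKO;Ptch+/-* MBs it was -0.82 (CI -1.48 to -0.16) and did not pass (adjusted p = 0.113), and the tumor genotypes differed by 0.28 (CI -0.38 to 0.94, adjusted p = 0.786). The call in *Ptch+/-* MBs was lost when *Ptch+/-* replicate 2 (adjusted p = 0.0687) or any 1 of the 4 GNP arrays was left out (adjusted p = 0.0533 to 0.0735).

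The signalling receptor showed no difference past the threshold in any comparison, and the clearance receptor was lower in *Ptch+/-* MBs on its brighter probe. For *Igf1r*, which encodes the receptor kinase, log2 signals were 10.43, 10.25, 10.41 and 10.26 in GNPs, 10.62, 10.80, 10.67 and 9.73 in *Ptch+/-* MBs and 10.28, 9.74, 10.61 and 10.27 in *NdpKO;Ptch+/-* MBs. The 3 groups overlapped, with 1 low array in each tumor group. Differences were 0.12 (CI -0.43 to 0.66, adjusted p = 0.808) in *Ptch+/-* MBs, -0.11 (CI -0.66 to 0.43, adjusted p = 0.836) in *NdpKO;Ptch+/-* MBs and -0.23 (CI -0.77 to 0.32, adjusted p = 0.788) between the tumors. None of the 4 *Igf1r* probes passed in any of the 3 comparisons, and 1 of them was under the limit on all arrays. Another gave 0.53, -0.14 and -0.67 in the same order, the last with an unadjusted p = 0.0441 and an adjusted p = 0.359. The dimmest probe above the limit gave -0.36, -0.80 and -0.43, where -0.80 had an unadjusted p = 0.011 and an adjusted p = 0.0739.

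*Igf2r* encodes the receptor that carries IGF2 and mannose 6-phosphate proteins to lysosomes. Its log2 signals were 7.15, 7.22, 7.12 and 7.41 in GNPs, 5.73, 6.06, 6.50 and 4.24 in *Ptch+/-* MBs and 6.53, 6.21, 7.27 and 7.04 in *NdpKO;Ptch+/-* MBs. All *Ptch+/-* MBs lay below all GNPs, 1 of them under the limit, and *NdpKO;Ptch+/-* MBs overlapped with both groups. The difference in *Ptch+/-* MBs was -1.59 (SE 0.43, CI -2.57 to -0.62, adjusted p = 0.0321), or 3.02-fold lower. In *NdpKO;Ptch+/-* MBs it was -0.47 (CI -1.44 to 0.51, adjusted p = 0.571), and between the tumors 1.13 (CI 0.15 to 2.10), with an unadjusted p = 0.0275 and an adjusted p = 0.293. The second probe gave -0.47 in *Ptch+/-* MBs (adjusted p = 0.609), so the probes of this gene disagreed. The call was also lost when *Ptch+/-* replicate 1 or any 1 of the GNP arrays was left out (adjusted p = 0.0613 to 0.0775).

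*Irs1*, the adaptor between IGF1R and phosphatidylinositol 3-kinase, was measured near the floor of the scale, with log2 signals of 4.37, 4.23, 4.26 and 4.27 in GNPs, 4.75, 4.30, 4.86 and 5.01 in *Ptch+/-* MBs and 5.0, 4.34, 4.53 and 4.36 in *NdpKO;Ptch+/-* MBs. All 4 GNP samples, 1 *Ptch+/-* MB and 2 *NdpKO;Ptch+/-* MBs were under the limit, and no comparison passed (adjusted p = 0.114, 0.378 and 0.773). Without *Ptch+/-* replicate 2, the difference between *Ptch+/-* MBs and GNPs passed (0.59, adjusted p = 0.0299).

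The binding proteins moved in opposite directions. In both types of tumor *Igfbp3* and *Igfbp7* were higher and *Igfbp5* was lower than in GNPs, *Igfbp4* was lower in *Ptch+/-* MBs alone by the test, and *Igfbp2* passed in no comparison. *Igfbp3*, whose product is the main carrier of IGFs in serum, had log2 signals of 4.92, 4.46, 4.28 and 4.35 in GNPs, 7.95, 7.70, 8.48 and 7.58 in *Ptch+/-* MBs and 7.48, 8.05, 8.13 and 7.64 in *NdpKO;Ptch+/-* MBs. The lowest tumor lay 2.57 log2 units above the highest GNP sample, and 3 of 4 GNP samples were under the limit. Differences were 3.43 (SE 0.23, CI 2.91 to 3.94, adjusted p = 1.1e-05) in *Ptch+/-* MBs and 3.33 (CI 2.81 to 3.84, adjusted p = 1.72e-05) in *NdpKO;Ptch+/-* MBs (the former a fitted 10.7-fold). On the second *Igfbp3* probe all 4 GNP samples were under the limit, and it was at least 7.80-fold higher in *Ptch+/-* MBs (adjusted p = 4.39e-05) and at least 8.22-fold higher in *NdpKO;Ptch+/-* MBs (adjusted p = 5.52e-05). Between the tumors *Igfbp3* differed by -0.10 (CI -0.62 to 0.42, adjusted p = 0.927). The microglial marker sums given for *Igf1* separated tumors from GNPs in the same way, and their part in the *Igfbp3* difference was not tested.

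*Igfbp5*, which encodes a binding protein of bone, muscle and developing brain, fell most among the IGF axis genes in both types of tumor. Its log2 signals were 13.17, 13.19, 13.11 and 13.21 in GNPs, 11.73, 10.72, 10.89 and 11.66 in *Ptch+/-* MBs and 11.13, 10.19, 10.56 and 10.90 in *NdpKO;Ptch+/-* MBs. GNP samples kept within 0.10 of each other, whereas the 8 tumors spread over more than 1 unit and all lay below them. The difference was -1.92 (SE 0.26, CI -2.50 to -1.33, adjusted p = 0.000871) in *Ptch+/-* MBs and -2.47 (CI -3.06 to -1.89, adjusted p = 0.000267) in *NdpKO;Ptch+/-* MBs, that is, 3.78-fold and 5.56-fold lower. The tumor genotypes did not differ past the threshold (-0.56, CI -1.14 to 0.03, adjusted p = 0.409). All 3 *Igfbp5* probes passed in both comparisons with GNPs, the other two with -1.93 and -2.25 in *Ptch+/-* MBs and -2.63 and -2.91 in *NdpKO;Ptch+/-* MBs.

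Most oligodendrocyte markers were also lower in tumors than in GNPs, and meningeal fibroblast markers were mixed. Of 7 oligodendrocyte lineage genes, 4 were lower and 1 higher in each type of tumor, and their summed signal was 60.2 to 69.5 in GNPs, 45.9 to 52.1 in *Ptch+/-* MBs and 49.5 to 53.8 in *NdpKO;Ptch+/-* MBs, with none of the 7 under the limit on every array. *Mag*, a protein of the myelin sheath, was above the limit on all GNP arrays and under it on 7 of 8 tumor arrays, with adjusted p = 1.37e-06 in *Ptch+/-* MBs. Of 10 genes of meningeal fibroblasts, 3 were lower and 2 higher in *Ptch+/-* MBs, with a median difference of -0.19, and 4 were lower and 1 higher in *NdpKO;Ptch+/-* MBs, with a median of -0.86. *Slc6a13*, a transporter of the meninges, moved most (-3.61 and -4.61), and *Pdgfra* was higher (0.88 and 0.65). Their sums were 65.4 to 67.2, 57.9 to 64.5 and 53.5 to 58.8 in GNPs, *Ptch+/-* MBs and *NdpKO;Ptch+/-* MBs. *Aldh1a2*, 1 of the 2 genes counted as higher in *Ptch+/-* MBs, was under the limit throughout. *Foxc1*, counted as lower in both types of tumor, was under the limit in all tumors and in 3 of 4 GNP samples. The part of these cell types in the lower *Igf2* and *Igfbp5* signals was not tested. Beside these marker counts, 17.3% of all probes passed in *Ptch+/-* MBs and 12.4% in *NdpKO;Ptch+/-* MBs in either direction. Among probes above the limit on some array the shares were 37% and 27.1%.

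*Igfbp4* was the IGF axis gene whose level differed between the tumor genotypes. It encodes a binding protein that restrains IGFs and is cleaved by the protease pappalysin. Its log2 signals were 9.89, 9.80, 9.56 and 9.70 in GNPs, 8.24, 8.21, 9.18 and 7.87 in *Ptch+/-* MBs and 10.34, 9.58, 9.88 and 10.76 in *NdpKO;Ptch+/-* MBs. *Ptch+/-* MBs lay below both other groups on every array, and *NdpKO;Ptch+/-* MBs overlapped with GNPs. *NdpKO;Ptch+/-* MBs exceeded *Ptch+/-* MBs by 1.77 (SE 0.31, CI 1.08 to 2.46, adjusted p = 0.0279), or 3.40-fold, with 0.40 between the closest arrays. Against GNPs *Igfbp4* was lower by 2.57-fold in *Ptch+/-* MBs (-1.36, CI -2.05 to -0.67, adjusted p = 0.0136) and did not pass in *NdpKO;Ptch+/-* MBs (0.41, CI -0.28 to 1.10, adjusted p = 0.472). The second *Igfbp4* probe gave 1.86 between the tumors (adjusted p = 0.0321), -1.30 in *Ptch+/-* MBs (adjusted p = 0.0251) and 0.55 in *NdpKO;Ptch+/-* MBs (adjusted p = 0.355).

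The call between the tumors was close to the threshold. It was lost in 9 of the 12 fits that left out 1 array and held without GNP replicate 3, *Ptch+/-* replicate 3 or *NdpKO;Ptch+/-* replicate 2, with a difference of 1.56 to 2.04 and an adjusted p of 0.0151 to 0.0723. With the tumor arrays alone the adjusted p was 0.167. Of 10 endothelial genes, 1 passed between the tumors, *Emcn*, a surface mucin of endothelium (higher by 1.95 in *NdpKO;Ptch+/-* MBs, adjusted p = 0.0321), and the median difference of the 10 was 0.64. The study had already reported *Emcn* as up-regulated in its expression profiles of these tumors, so this call is no independent observation. *Cldn5*, a tight junction protein, differed by -0.01 between the tumors and was lower than in GNPs in both. Against GNPs, 6 of the 10 passed as lower in *Ptch+/-* MBs and 1 in *NdpKO;Ptch+/-* MBs. Of all probes, 9.14% and 6.61% passed as lower in these comparisons, and 1.38% passed between the tumors in either direction. Among probes above the limit on some array, 37%, 27.1% and 3.42% passed in either direction. The summed endothelial signal was 73.8 to 79.6 in GNPs, 63.7 to 71.6 in *Ptch+/-* MBs and 69.6 to 77.5 in *NdpKO;Ptch+/-* MBs, and *Kdr* and *Tie1* stayed under the limit on all arrays. For 10 mural cell genes the sums were 54.8 to 57.6, 53.1 to 56.9 and 58.7 to 62.1 in the same order, and 1 passed between the tumors, *Vtn*, higher by 0.90 in *NdpKO;Ptch+/-* MBs (adjusted p = 0.0427), with *Pdgfrb*, *Anpep* and *Myh11* under the limit throughout. The part of vascular cells in the *Igfbp4* difference was not tested.

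*Igfbp7* encodes a secreted protein with low affinity for IGFs that is abundant in blood vessels. Its log2 signals were 11.63, 11.55, 11.70 and 11.69 in GNPs, 12.45, 12.45, 11.85 and 12.41 in *Ptch+/-* MBs and 12.46, 12.56, 12.88 and 12.58 in *NdpKO;Ptch+/-* MBs. All tumors exceeded all GNPs, and all *NdpKO;Ptch+/-* MBs exceeded all *Ptch+/-* MBs, the latter by 0.01 between the closest arrays. Differences from GNPs were 0.65 (SE 0.14, CI 0.34 to 0.96, adjusted p = 0.0102), or 1.57-fold, in *Ptch+/-* MBs and 0.98 (CI 0.67 to 1.29, adjusted p = 0.00145), or 1.97-fold, in *NdpKO;Ptch+/-* MBs. Between the tumors the difference of 0.33 (CI 0.02 to 0.64) had an unadjusted p = 0.039 and did not pass (adjusted p = 0.341). The values rest on 1 probe, because the other 4 *Igfbp7* probes were under the limit on every array.

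*Igfbp2*, which encodes a binding protein of fetal tissues and glia, had log2 signals of 8.76, 8.52, 8.32 and 8.11 in GNPs, 8.54, 7.43, 8.79 and 8.49 in *Ptch+/-* MBs and 8.86, 8.66, 8.58 and 8.96 in *NdpKO;Ptch+/-* MBs. The groups overlapped, and *Ptch+/-* replicate 2 was the lowest array. Differences were -0.12 (CI -0.72 to 0.49, adjusted p = 0.835), 0.34 (CI -0.27 to 0.94, adjusted p = 0.502) and 0.45 (CI -0.15 to 1.06, adjusted p = 0.55) for *Ptch+/-* MBs and *NdpKO;Ptch+/-* MBs against GNPs and for the tumors against each other. The second probe gave 0.52 (adjusted p = 0.206) and 0.86 (adjusted p = 0.0521) against GNPs, so the brighter probe alone gave a negative sign in *Ptch+/-* MBs.

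Counted over the 10 genes, 7 passed the test between *Ptch+/-* MBs and GNPs, 3 higher (*Igf1*, *Igfbp3* and *Igfbp7*) and 4 lower (*Igf2*, *Igf2r*, *Igfbp4* and *Igfbp5*). In this comparison 17.3% of all probes passed, 8.12% higher and 9.14% lower, and 37% of the 17180 probes that reached the background limit on at least 1 array. The median difference of the 10 genes was 0.00, beside 0.00 over all probes. Between *NdpKO;Ptch+/-* MBs and GNPs 4 passed, 3 higher (*Igf1*, *Igfbp3* and *Igfbp7*) and 1 lower (*Igfbp5*), where 12.4% of all probes passed (5.79% higher and 6.61% lower) and 27.1% of those above the limit. The median of the 10 was 0.31. These comparisons share the 4 GNP arrays and are set side by side for that reason. Between the tumor genotypes 1 of the 10 passed, *Igfbp4*, where 1.38% of all probes did (0.53% higher and 0.848% lower) and 3.42% of those above the limit, and 3 had an unadjusted p under 0.05. The median of the 10 was 0.15.

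**Figure D2:**
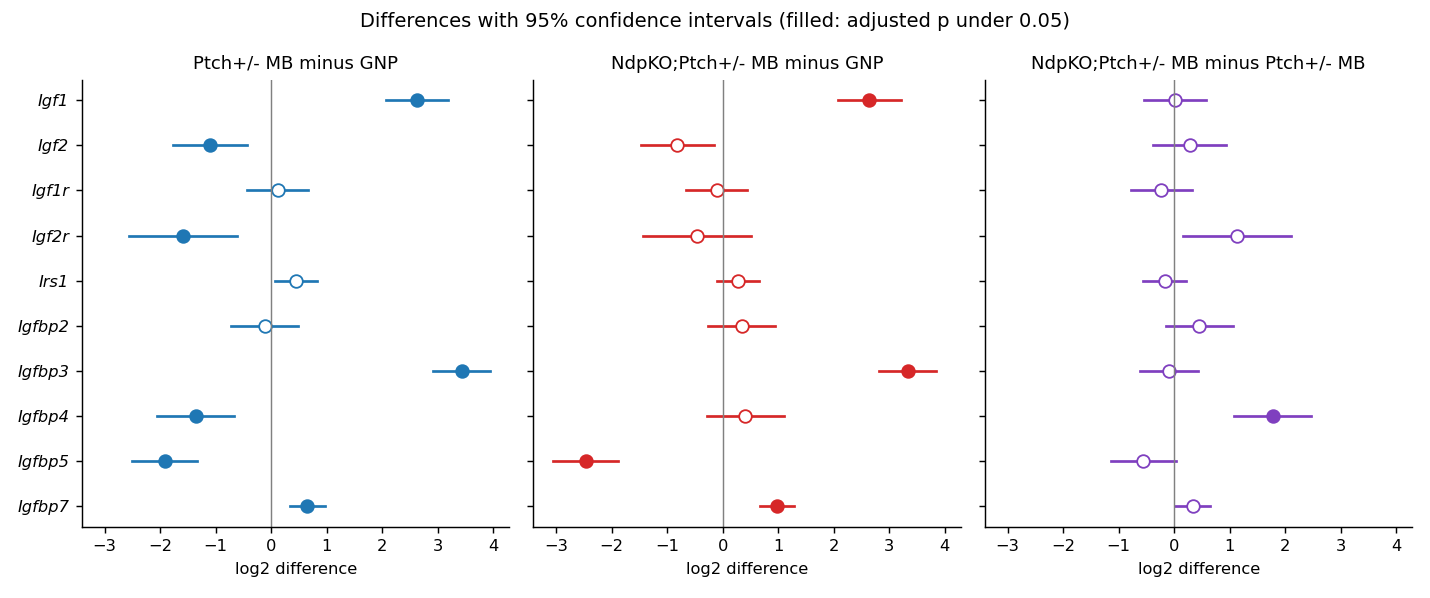
Log2 difference of each IGF axis gene with its 95% confidence interval, in 1 panel per comparison; filled points passed an adjusted p under 0.05 (limma, 45281 probes). Against GNPs, 7 genes passed in *Ptch+/-* MBs and 4 in *NdpKO;Ptch+/-* MBs, and *Igfbp4* alone passed between the tumors.

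**Figure D3:**
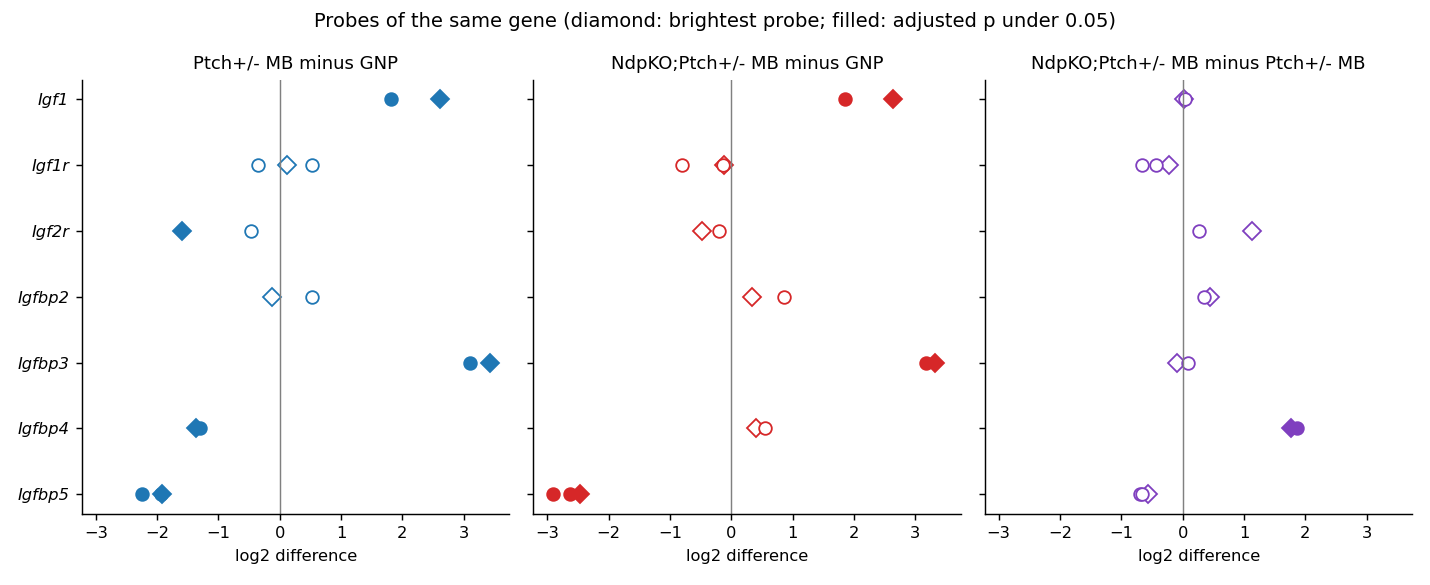
Log2 differences of the 16 probes of 7 IGF axis genes with more than 1 probe above the background limit on some array, in 1 panel per comparison; diamonds are the brightest probe, circles the others, and filled symbols passed an adjusted p under 0.05. Probes of *Igf1*, *Igfbp3*, *Igfbp4* and *Igfbp5* passed together, while those of *Igf2r* lay at -1.59 and -0.47 in *Ptch+/-* MBs and those of *Igfbp2* on both sides of 0.

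Of the 24 probes, 19 reached the limit on some array. Of the 7 genes with several such probes, *Igf2r* in *Ptch+/-* MBs was the one whose probes fell on different sides of the threshold. The probes of *Igf1*, *Igfbp3*, *Igfbp4* and *Igfbp5* passed together, as the plot of single probes shows, and no probe of *Igf1r* or *Igfbp2* passed anywhere.

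Other genes of the pathway were read from 3 lists. Among proteins that bind or process IGF-binding proteins, or resemble them, 16 of 17 listed genes had a probe and 7 reached the limit on some array. Of these 7, 3 were lower and none higher in *Ptch+/-* MBs, 2 were lower and 1 higher in *NdpKO;Ptch+/-* MBs, and 1 was higher in *NdpKO;Ptch+/-* than in *Ptch+/-* MBs, where 37%, 27.1% and 3.42% of all probes above the limit passed in either direction. Over all 16, 1 was higher and 4 lower in *Ptch+/-* MBs, and the median difference was -0.01, beside 0.00 over all probes. *Stc1* encodes a stanniocalcin, an inhibitor of pappalysin, and its log2 signals were 9.10, 8.38, 8.52 and 7.92 in GNPs, 4.20, 4.21, 4.19 and 4.14 in *Ptch+/-* MBs and 4.26, 4.84, 5.55 and 4.31 in *NdpKO;Ptch+/-* MBs. It was at least 15.8-fold lower in *Ptch+/-* MBs (adjusted p = 1.63e-05) and lower by a fitted 13.4-fold in *NdpKO;Ptch+/-* MBs (adjusted p = 5.52e-05). *Cyr61*, a matrix protein with an IGF-binding domain, was at a mean of 6.86 in GNPs and under the limit in all tumors, at least 5.13-fold lower in both groups (adjusted p = 4.79e-07 and 5.33e-07). *Igfbpl1*, an IGF-binding protein relative of developing neurons, was slightly lower in *Ptch+/-* MBs (-0.35, adjusted p = 0.0113) and gave -0.22 in *NdpKO;Ptch+/-* MBs (adjusted p = 0.0976).

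*Esm1*, a proteoglycan of endothelial cells named for that origin and a distant relative of the binding proteins, was the gene of this list that differed between the tumors, with log2 signals of 4.16, 4.19, 4.17 and 4.14 in GNPs, 6.97, 4.22, 4.16 and 4.18 in *Ptch+/-* MBs and 8.74, 9.85, 9.09 and 8.57 in *NdpKO;Ptch+/-* MBs. All *NdpKO;Ptch+/-* MBs were above every other array, and 1 of 4 *Ptch+/-* MBs was above the limit. It was at least 23.6-fold higher in *NdpKO;Ptch+/-* MBs than in GNPs (adjusted p = 0.000615) and passed between the tumors (adjusted p = 0.0124). The study had already reported *Esm1* as up-regulated in *NdpKO;Ptch+/-* MBs from its expression profiles, so the call between the tumors is no independent observation. *Igfbp1*, *Igfbp6* and *Igfals*, the remaining binding proteins and the acid-labile subunit of the serum complex, lay at background with group means of 4.12 to 4.17.

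Among transducers of the insulin and IGF receptors, 38 of 47 listed genes had a probe and 31 reached the limit. Of the 31, 5 were higher and 5 lower in *Ptch+/-* MBs, 5 higher and 6 lower in *NdpKO;Ptch+/-* MBs, and 1 was higher in *NdpKO;Ptch+/-* than in *Ptch+/-* MBs. These counts stand beside 37%, 27.1% and 3.42% of all probes above the limit that passed in the same comparisons, and 10 and 11 of 31 lie near those shares. Over all 38, 5 were higher and 6 lower in *Ptch+/-* MBs, 5 higher and 7 lower in *NdpKO;Ptch+/-* MBs, and the median difference was 0.00 in both, as over all probes. The gene that passed between the tumors was *Grb10*, an imprinted adaptor that restrains IGF1R and the insulin receptor, and its arrays read 10.92, 11.02, 10.05 and 9.52 in GNPs, 5.95, 4.72, 4.28 and 4.88 in *Ptch+/-* MBs and 9.68, 9.07, 8.60 and 7.29 in *NdpKO;Ptch+/-* MBs. *Ptch+/-* MBs were below all other arrays by at least 1.33 units, and *NdpKO;Ptch+/-* MBs overlapped with GNPs. The difference was -5.42 in *Ptch+/-* MBs (CI -6.69 to -4.15, adjusted p = 0.00018) and -1.72 in *NdpKO;Ptch+/-* MBs (adjusted p = 0.0834), and 3.70 between the tumors (CI 2.43 to 4.97, adjusted p = 0.0162).

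Larger changes than those of most other transducers were seen in *Foxo6* and *Foxo3*, transcription factors restrained by AKT, which are named after their values were seen. *Foxo6* was under the limit on all GNP arrays and was at least 4.62-fold higher in *Ptch+/-* MBs (adjusted p = 0.0135) and at least 3.69-fold higher in *NdpKO;Ptch+/-* MBs (adjusted p = 0.0324). *Foxo3* was lower in *NdpKO;Ptch+/-* MBs (-1.74, adjusted p = 0.0208) and gave -1.01 in *Ptch+/-* MBs (adjusted p = 0.133). *Pik3r3*, a regulatory subunit of phosphatidylinositol 3-kinase, was lower by 0.98 log2 units in *Ptch+/-* MBs (adjusted p = 0.000357) and by 0.73 in *NdpKO;Ptch+/-* MBs (adjusted p = 0.0027). *Pik3cb*, a catalytic subunit, gave -0.35 (adjusted p = 0.0367) and -0.63 (adjusted p = 0.00258) in the same order. *Inppl1*, the lipid phosphatase SHIP2, was higher in *NdpKO;Ptch+/-* MBs (1.36, adjusted p = 0.000942) and did not pass in *Ptch+/-* MBs (0.55, adjusted p = 0.0628) or between the tumors (0.81, adjusted p = 0.0671). *Insr*, the insulin receptor, was higher in *Ptch+/-* MBs (0.62, adjusted p = 0.0371) and gave 0.38 in *NdpKO;Ptch+/-* MBs (adjusted p = 0.218). *Irs2*, the adaptor related to IRS1, was lower in *NdpKO;Ptch+/-* MBs (-0.98, adjusted p = 0.0146) and gave -0.49 in *Ptch+/-* MBs (adjusted p = 0.158). *Rheb*, the GTPase that activates mTOR, was lower in *Ptch+/-* MBs (-0.51, adjusted p = 0.00219) and gave -0.27 in *NdpKO;Ptch+/-* MBs (adjusted p = 0.0575). The *Akt1* and *Akt2* probes were under the limit on all arrays, and *H19* was not analysed here.

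Of genes that regulate IGF transcripts or neighbour *Igf2*, 10 of 14 had a probe and 5 reached the limit. In each comparison with GNPs 2 of these were lower and none higher, and between the tumors 1 was higher and 1 lower. The median of all 10 was 0.00 in each comparison. Among all probes above the limit on some array, 37%, 27.1% and 3.42% passed in *Ptch+/-* MBs, in *NdpKO;Ptch+/-* MBs and between the tumors. *Igf2bp3* encodes an RNA-binding protein of the *Igf2* transcript, and its log2 signals were 9.93, 9.81, 9.47 and 9.07 in GNPs, 4.20, 4.14, 4.18 and 4.20 in *Ptch+/-* MBs and 4.62, 5.91, 6.28 and 4.28 in *NdpKO;Ptch+/-* MBs. It was at least 33.6-fold lower in *Ptch+/-* MBs (adjusted p = 2.5e-05) and lower by a fitted 19.7-fold in *NdpKO;Ptch+/-* MBs (adjusted p = 0.000147), and the tumors did not differ past the threshold (adjusted p = 0.287).

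*Ghr* and *Cebpb* parted the tumor genotypes in opposite directions. *Ghr*, the growth hormone receptor upstream of *Igf1*, had means of 7.52, 6.37 and 7.90 in GNPs, *Ptch+/-* MBs and *NdpKO;Ptch+/-* MBs, lower in *Ptch+/-* MBs (-1.15, adjusted p = 0.0304) and higher by 1.53 in *NdpKO;Ptch+/-* than in *Ptch+/-* MBs (adjusted p = 0.0482). *Cebpb*, a transcription factor of inflammatory and metabolic genes, had means of 8.61, 8.29 and 5.48, lower in *NdpKO;Ptch+/-* MBs than in GNPs (-3.12, adjusted p = 0.000495) and than in *Ptch+/-* MBs (-2.81, adjusted p = 0.00828).

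**Figure D4:**
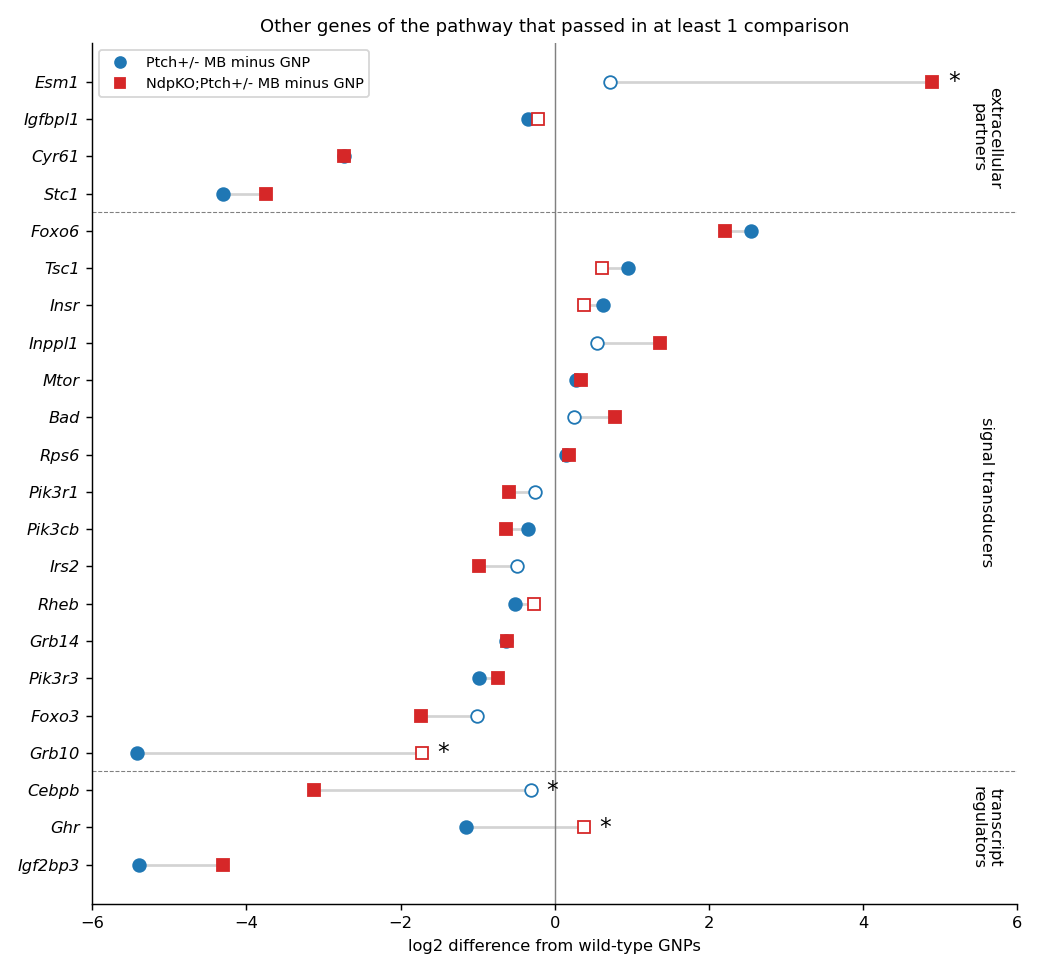
Log2 difference from wild-type GNPs of the 22 other pathway genes that reached the background limit on some array and passed in at least 1 comparison; circles are *Ptch+/-* MBs, squares *NdpKO;Ptch+/-* MBs, filled symbols passed an adjusted p under 0.05, and an asterisk marks genes that passed between the tumors. *Esm1*, *Grb10*, *Cebpb* and *Ghr* carry the asterisk, and the symbols of genes under the limit in a group are fitted values.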

How the data were processed

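Total RNA of 12 samples was measured, each on its own Illumina MouseWG-6 v2.0 array. The authors passed the BeadStudio output through neqc of limma, which corrects the background by negative control probes, adds an offset and equalizes quantiles, and deposited log2 signals. Every array therefore has a median of 4.15, and the arrays cannot be compared in general level. The version of limma and the genome build of the probes were not given in the sources used here. Probes were named from the GEO platform annotation (34885 with 1 symbol, 18 with several, 10378 with none), with list symbols matched through RefSeq gene identifiers.

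Groups, taken from the labels, were compared in R 4.3.3 with lmFit and eBayes of limma 3.58.1, with 1 model of the 3 group means fitted to the 12 arrays and no covariate, with Benjamini-Hochberg adjustment over 45281 probes and a threshold of 0.05. The precision is limited by 4 arrays a group. Files used here hold no detection p, slide or scan, so no batch could be modelled. The limit of 4.5 was set once the values were known. A gene under it on every array of the dimmer group was given an "at least" fold, from the limit and the mean of the brighter group. The model was also run on simulated data, with independent normal values and shifts in brighter probes only. That run does not cover signals near background or arrays that vary together. Figures were drawn with matplotlib 3.10.9 in Python 3.11.15.

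The genes and lists were chosen with earlier results of these data known. Named are all 10 genes; up to 4 genes per list and comparison with the smallest p past the threshold; *Igfbp6*, *Insr*, *Irs2*, *Akt1*, *H19* and *Grb10*; up to 3 markers per cell type; and the genes most like each of the 10 over 8 tumors. *Igfbp1*, *Igfals*, *Akt2*, *Foxo3*, *Foxo6*, *Zic1*, *Zic2* and *Barhl1*, and markers named for lying under the limit, were added after their values had been seen. Lists for astrocytes, choroid plexus, granule and Purkinje cells are described with the closing values. Alternatives were 2 groups at a time, the replicate number as a block, median centring, a second quantile normalization, a filter on dim probes, a trended robust prior, array weights, the mean of a gene's probes, a threshold of 0.01, leaving out each array, and, added after seeing the data, the mean of probes above the limit.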

Additional observations from a re-analysis of the deposited data

Results flagged for a closer look

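*Igf1* in GNP replicate 1 stood apart from its group: its log2 signal was 5.26, and the other 3 GNP samples lay at 4.19 to 4.23. *Igfbp7* in *Ptch+/-* MB replicate 3, at 11.85, lay below the other 3 samples of its group, of which the nearest was 12.41. Both were found by Dixon's test at its 95% critical value in 30 sets of 4 arrays, where chance marks about 1 set in 20. For *Igf1* the other 3 GNP samples lay under the background limit, so that rate may not hold for this set. *Igfbp4* differed between the tumor genotypes in its distance from GNPs, by 1.77 log2 units (adjusted p = 0.0279), tested as the contrast of the genotypes in the same model.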

How the results depend on the processing

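Of the 12 differences of IGF axis genes that passed the test, 7 kept direction and call under all alternatives and none changed direction. Between the tumor genotypes the count of 1 gene fell to 0 with the tumor arrays alone (1 at an unadjusted p under 0.05), to 0 with a block for the replicate number (3) and to 0 at a threshold of 0.01 (3), all with limma, and was 0 to 1 when arrays were left out. In *Ptch+/-* MBs the 7 became 3 at a threshold of 0.01 and 5 to 7 when arrays were left out. The 4 of *NdpKO;Ptch+/-* MBs became 4 to 5, where *Igf2* passed without *Ptch+/-* replicate 3 (adjusted p = 0.0376) and, with its 1 probe, when fewer features were tested because the probes above the limit were averaged per gene (adjusted p = 0.0398). *Igf2* in *Ptch+/-* MBs did not pass with 2 groups at a time (adjusted p = 0.0546), nor did *Igf2r* (adjusted p = 0.0709). *Igf2r* also failed with the block (adjusted p = 0.0668) and with the mean of its probes (adjusted p = 0.136). The mean of all probes, 4 of them at background, reduced *Igfbp7* to 0.13 and 0.20. Among differences that had not passed, the sign turned for *Igf1* between the tumors with array weights (-0.05) and for *Igfbp2* in *Ptch+/-* MBs with the mean of its probes (0.20). Leaving out arrays gave -0.13 to 0.10 and -0.27 to 0.18 for these, and -0.22 to 0.08 for *Igfbp3* between the tumors and -0.24 to 0.05 for *Igf1r* in *NdpKO;Ptch+/-* MBs. Counting genes that passed in at least 1 comparison, 6 extracellular partners passed, 3 at a threshold of 0.01, 3 with the mean of probes above the limit and 4 to 6 when arrays were left out. The 16 transducers became 8 at 0.01 and 13 to 18 when arrays were left out, and the 3 transcript regulators 2 to 3. The cause of these changes was not tested. Deviations from the group means correlated at -0.18 to 0.11 over 17180 probes between arrays with equal replicate numbers. Arrays with different numbers were not correlated for reference, so these values cannot decide whether samples were paired. The block changed no call of these genes other than those of *Igfbp4* between the tumors and *Igf2r*. No alternative with the slide as a block could be run. *Igf1* and *Igfbp3* in GNPs and *Irs1* in general were limited by signal near background.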

Other observations

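For each IGF axis gene above the background limit on all 8 tumors, the genes whose deviations from the group means were most like its own were sought among 7656 genes, as a description over 8 tumors with no test, since the highest of so many correlations is large in any case. For *Igf1* these were *Tdrd7* (Pearson's r = 0.993) and *Rnf181* (0.992), for *Igf2* *Ddx49* (0.956) and *Atp6v0e* (0.944), and for *Igf1r* *C2cd5* (0.985) and *Dennd11* (0.975). Among binding proteins, the nearest genes were *Dalrd3* (0.976) and *Chac1* (0.968) for *Igfbp2*, *Zmym2* (0.962) and *Ybey* (0.954) for *Igfbp3*, and *Slc22a17* (0.965) and *Naa60* (0.955) for *Igfbp4*. *Igfbp5* was followed by *Eif3c* (0.989) and *Eri3* (0.954), and *Igfbp7* by *Sf3b5* (0.975) and *Kifc1* (0.96). No IGF axis gene was among them.

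Of the remaining cell type markers, 4 of 10 genes of astrocytes and Bergmann glia were higher and 1 lower in *Ptch+/-* MBs than in GNPs, and 3 were higher and none lower in *NdpKO;Ptch+/-* MBs. *Gfap*, the astrocyte intermediate filament, was higher by 2.02 (adjusted p = 0.000529) and 1.88 (adjusted p = 0.0011). Between the tumors *Hopx*, a marker of Bergmann glia, passed (1.71, adjusted p = 0.0126). Of 6 choroid plexus genes *Clic6* was higher in both tumor groups, and the summed signal ranged from 34 to 52.9 among *Ptch+/-* MBs, 35.9 to 45.3 among *NdpKO;Ptch+/-* MBs and 38.8 to 42.1 among GNPs. Of 9 granule lineage genes 1 was higher and 3 were lower in *Ptch+/-* MBs, and 2 were lower in *NdpKO;Ptch+/-* MBs. Of 5 Purkinje cell genes 1 was lower in *Ptch+/-* MBs and 2 in *NdpKO;Ptch+/-* MBs, with *Calb1*, *Pcp4* and *Car8* under the limit throughout. Beside these counts, 17.3% of all probes passed in *Ptch+/-* MBs, 12.4% in *NdpKO;Ptch+/-* MBs and 1.38% between the tumors, in either direction. Among probes above the limit on some array the shares were 37%, 27.1% and 3.42%.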
